A study of Mus musculus with 6 samples.

Results

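The clustered histone genes are the genes that supply the histone proteins used to package newly made DNA. Members were the protein-coding genes whose names begin with Hist1h, Hist2h, Hist3h or Hist4h, and 67 of the 54532 genes in the deposited table met this rule. Of these, 54 carry Hist1 names and lie on chromosome 13, 10 carry Hist2 names and lie on chromosome 3, 2 carry Hist3 names and lie on chromosome 11, and 1, Hist4h4, lies on chromosome 6 (all positions in mouse build GRCm38). By the class of histone they encode, 6 are H1 genes, 18 H2A, 18 H2B, 12 H3 and 13 H4. The rule used names and no measured value, but it was set with earlier results of these data known. A further 3 histone names that the table calls pseudogenes were left out.

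The study compared neutrophils isolated from mouse bone marrow of wild-type (WT) animals with those of progranulin (PGRN) knockout animals, strain C57BL/6J, to see how transcription differs when PGRN is missing during a fungal infection. Both genotypes were cultured for 2 hours and then given live Candida albicans for 6 hours, so no uninfected sample enters here. There were 3 libraries per genotype, WT replicates 1 to 3 and PGRN KO replicates 4 to 6, and RNA-seq reads were given per gene as FPKM, fragments scaled to transcript length and to library size. The study's methods state that mRNA was drawn out with poly-T beads, and that knockout and WT mice were bought from different suppliers, so genotype and source of the animals cannot be told apart. The labels do not say whether the cultures of a genotype came from separate mice, and p-values then measure only the spread between these samples.

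A replication-dependent histone gene is usually a short gene without introns whose mRNA accumulates while a cell copies its DNA. Its mRNA normally ends not in a poly(A) tail but shortly after a stem-loop, which is bound by the stem-loop binding protein SLBP and cut with the help of the U7 snRNP. H2A, H2B, H3 and H4 form the core of the nucleosome and H1 binds the linker DNA between nucleosomes. Replacement histones such as H3.3 and H2A.Z come from genes outside the clusters, are made in all phases of the cell cycle and have polyadenylated mRNAs. A mature neutrophil no longer divides, while its precursors in the bone marrow do.

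The stem-loop is the sequence that sets these genes apart, and it was looked for in the annotated transcripts (GENCODE M21) after the stop codon, as 16 bases of the form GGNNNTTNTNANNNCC with both arms pairing. It was present in 46 of 67 members (68.7%), against 83 of 22527 coding genes (0.368%). Its first base lay between 21 and 58 bases past the stop codon, with a median of 31. There were 8 forms, of which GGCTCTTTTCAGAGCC was found in 26 members, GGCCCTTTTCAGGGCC in 7 and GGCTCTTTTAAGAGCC in 6. The lines that follow show the stem-loop, in capitals, with 5 bases on each side for 6 members whose levels are described further on.
Hist1h2bk: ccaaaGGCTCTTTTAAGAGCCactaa
Hist1h2bj: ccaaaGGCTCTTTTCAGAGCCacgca
Hist1h2ao: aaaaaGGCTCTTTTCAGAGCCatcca
Hist1h3g: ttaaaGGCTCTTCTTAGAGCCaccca
Hist1h1c: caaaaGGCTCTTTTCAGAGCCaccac
Hist1h4i: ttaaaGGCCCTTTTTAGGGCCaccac
Hist1h2bj, Hist1h2ao and Hist1h1c carry the same form, while Hist1h2bk, Hist1h3g and Hist1h4i carry 3 others. Of the 21 members without a match, 15 have fewer than 16 annotated bases past the stop codon, so these models end before the place where the stem-loop would lie. The remaining 6 are Hist1h1a, Hist1h2bc, Hist1h2bq, Hist1h2br, Hist2h2be and Hist2h3b. At the other end, 23 members have an annotated transcript that runs 100 or more bases beyond the stem-loop.

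Upstream sequences were compared because 4 of the genes that differed between genotypes lie head to head with another histone gene. RefSeq gave the 250 bases before a start at or near the annotated gene for 61 members (build GRCm38.p6). Hist1h2be has 2 such windows, and a member was counted where any window held the motif. These lines show the sequence upstream of 4 members, with every match to CCAAT or to TATAAA or to ATTTGCAT on either strand in capitals.
Hist1h2bk (chr13:22035571-22035820, + strand): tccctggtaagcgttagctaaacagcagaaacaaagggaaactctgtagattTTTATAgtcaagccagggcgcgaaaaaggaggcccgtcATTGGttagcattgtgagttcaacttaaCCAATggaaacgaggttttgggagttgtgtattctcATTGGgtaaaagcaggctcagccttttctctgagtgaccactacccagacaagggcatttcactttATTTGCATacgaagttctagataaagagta
Hist1h2bj (chr13:22042948-22043197, + strand): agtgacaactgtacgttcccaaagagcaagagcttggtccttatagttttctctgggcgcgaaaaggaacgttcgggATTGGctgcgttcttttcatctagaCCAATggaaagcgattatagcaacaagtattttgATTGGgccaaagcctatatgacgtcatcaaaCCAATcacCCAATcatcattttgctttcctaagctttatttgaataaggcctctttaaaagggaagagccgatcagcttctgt
Hist1h1b (chr13:21780626-21780875, - strand): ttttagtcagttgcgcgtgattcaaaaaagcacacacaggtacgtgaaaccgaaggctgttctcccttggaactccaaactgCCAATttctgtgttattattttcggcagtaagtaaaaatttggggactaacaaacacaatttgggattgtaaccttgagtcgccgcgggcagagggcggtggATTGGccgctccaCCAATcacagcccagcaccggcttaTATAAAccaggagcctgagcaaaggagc
Hist1h4i (chr13:22041363-22041612, - strand): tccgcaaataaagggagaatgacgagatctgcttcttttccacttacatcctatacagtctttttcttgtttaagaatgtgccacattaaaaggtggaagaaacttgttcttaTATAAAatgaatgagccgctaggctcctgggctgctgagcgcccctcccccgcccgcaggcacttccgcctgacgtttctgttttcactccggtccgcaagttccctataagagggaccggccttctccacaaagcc
The CCAAT box, a common binding motif of the factor NF-Y, was present in 50 of the 61 (81.97%), against 33.9% of 32851 promoters. It was found in all of these H1, H2A and H2B genes and in 8 of 10 H3 genes, but in only 3 of 12 H4 genes. TATAAA was present in 47.5% against 12.4% of all promoters. The octamer ATTTGCAT, the motif of the OCT1 factor, was present in 22.95% against 1.6%, in 7 of 17 H2A and 7 of 16 H2B genes and in no H1, H3 or H4 gene with a promoter entry. Hist1h2bk held all 3 motifs and Hist1h2bj held CCAAT alone. A match says only that these letters stand in this window.

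The libraries held 17087344 to 18821091 fragments on genes, and the members took only 721 to 767 of them in WT against 992 to 1086 in PGRN KO. As a share, that was 43.7, 41.9 and 40.5 fragments per 1000000 in WT replicates 1 to 3 and 58.1, 62.7 and 57.7 in PGRN KO replicates 4 to 6. The highest WT share had an exact 95% interval of 40.7 to 46.9 per 1000000 and the lowest PGRN KO share one of 54.3 to 61.2. Such intervals, and the limits given further on for genes at 0, cover counting error only. Grn, the gene of progranulin, was at 168.4, 161.3 and 166.1 FPKM in WT and at 0.242, 0.206 and 0.747 in PGRN KO, which fits the genotype labels. Genes that mark neutrophils summed to 53543 to 57615 FPKM in WT against 55425 to 64042 in PGRN KO.

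More clustered histone mRNA was measured in PGRN KO neutrophils than in WT neutrophils. The 67 members summed to 45.5, 42.7 and 43.6 FPKM in WT and to 58.9, 61.9 and 56.8 in PGRN KO, or 43.9 ± 1.46 against 59.2 ± 2.53 (mean ± SD, n = 3 each), a ratio of 1.35. The genotypes did not overlap. In samples of bulk RNA like these, a different share of cells that make histone mRNA and a different amount of it per cell cannot be told apart. The sums also cover only the histone mRNA captured with poly-T beads, and these mRNAs normally lack a poly(A) tail. Whether the captured part differed between genotypes was not tested. All 5 classes were higher in each PGRN KO library than in any WT library, by ratios between 1.17 and 1.81. With scaling to plain library totals the ratio of all members was 1.47. The summed level of 7 promyelocyte genes, markers of dividing neutrophil precursors, moved with it from 139.1 ± 7.66 to 654.8 ± 30.9 FPKM (SD, n = 3), and their part in it was not tested.

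**Figure D1:**
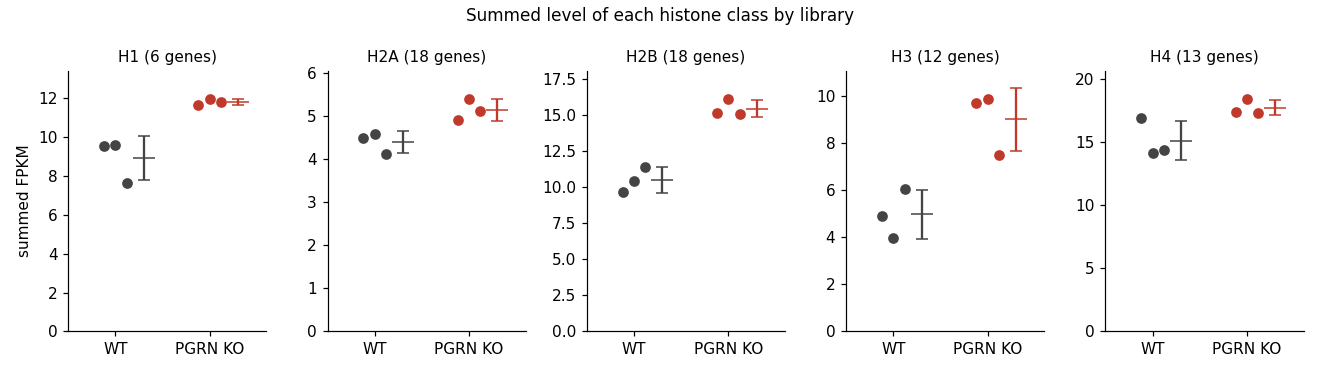
Summed FPKM of the H1, H2A, H2B, H3 and H4 genes in each library (points), with the mean and SD of 3 libraries per genotype (bars); each panel has its own axis from 0. In all 5 panels the 3 PGRN KO libraries lie above the 3 WT libraries, with H3 furthest apart (ratio 1.81) and H2A and H4 least (both 1.17).

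H3 genes differed most between the genotypes and H2A and H4 genes least. H3 summed to 4.91, 3.96 and 6.05 FPKM in WT against 9.70, 9.89 and 7.48 in PGRN KO. H2B followed with 9.67, 10.4 and 11.5 in WT against 15.2, 16.2 and 15.1 in PGRN KO, a ratio of 1.47. H1 was at 9.52, 9.60 and 7.63 in WT against 11.7, 11.97 and 11.8 in PGRN KO, a ratio of 1.33. These 3 classes also stayed apart when the gene of each with the highest mean over the 6 libraries was taken out. The ratios were then 2.07 for H3, 1.598 for H2B and 2.12 for H1. For H3 this gene, Hist1h3c, led in WT (1.53 FPKM) but in PGRN KO (1.89) lay below Hist1h3g (2.12), and taking it out raises the ratio.

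In H2A and H4 the genotypes no longer stood apart once the gene with the highest mean over all 6 libraries was taken out. H2A was at 4.51, 4.59 and 4.12 FPKM in WT against 4.91, 5.41 and 5.14 in PGRN KO, and without Hist1h2ao the genotypes overlapped at a ratio of 1.04. Hist1h2ao led this class through PGRN KO (1.09 FPKM), while in WT (0.492) it lay below Hist1h2af (0.848). Taking out a gene picked partly by its PGRN KO level lowers the ratio of the rest. H4 was at 16.9, 14.1 and 14.4 in WT against 17.4, 18.5 and 17.4 in PGRN KO, and without Hist1h4i they overlapped at a ratio of 1.08. By cluster, the 54 Hist1 genes summed to 41.4 ± 1.41 in WT against 56.5 ± 2.52 in PGRN KO (SD, n = 3), with no overlap. The 10 Hist2 genes summed to 1.84 ± 0.220 and 1.90 ± 0.0561 and overlapped.

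A few genes carried much of the sum. Hist1h4i, Hist1h1c and Hist1h2bc, the members with the highest mean level, made up 49.3% of the WT sum and 45.4% of the PGRN KO sum. Without these 3 the remaining 64 members summed to 22.3 ± 2.31 FPKM in WT against 32.3 ± 1.92 in PGRN KO (SD, n = 3), a ratio of 1.45 with no overlap. Only those 3 members averaged 2 FPKM or more over the 6 libraries. Most members were near the limit of detection, with 11 at 0 in all libraries, 4 more below the filter of mean FPKM 0.1, and 41 of the 52 tested under 1 FPKM.

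The genotype difference of each gene was tested with limma on log2(FPKM + 1), over all 14807 genes with a mean of at least 0.1 FPKM and with Benjamini-Hochberg adjustment. This scale understates the change of low genes. Of the 52 members tested, 6 passed an adjusted p of 0.05 and were higher in PGRN KO (11.5%), where 7.94% of all tested genes were called higher and 9.95% lower. Of the 6, only Hist1h1b, Hist1h2ao and Hist1h2bk were among the 41 tested members with a mean under 1 FPKM. Among all tested genes with so low a mean, 2.7% were called higher. No member was called lower in this limma test, which at an unadjusted p under 0.05 gave 11 higher and 0 lower, while voom on recovered fragments called 5 higher and 0 lower. The fold change lay above 0 for 36 members and below 0 for 16 (50.6% of all tested genes lay above 0), with a median of 0.12 on the log2 scale against 0.0026 over all genes. Some members on each side passed the filter through 1 genotype alone, which fixed their direction in advance. All 3 PGRN KO libraries lay above all 3 WT libraries in 9 members, where 18.1% of all tested genes did so, and below them in 0, where 19.6% did.

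The number of called members depended on single libraries. It fell from 6 to 2 without WT replicate 2, WT replicate 3 or PGRN KO replicate 4, and to 1 without PGRN KO replicate 5. Calls over all 14807 tested genes fell as well, from 1175 higher to 540 without WT replicate 2 and 666 without WT replicate 3. They fell to 913 without PGRN KO replicate 4 and to 547 without PGRN KO replicate 5, so the loss is not particular to the members. Testing every gene with a value above 0 left 3, Hist1h2bk, Hist1h2bj and Hist1h2bc. The count was 5 without WT replicate 1, of which 4 were among the 6 and the other was Hist1h3a, which voom also called. It was 4 without PGRN KO replicate 6, of which 3 were among the 6 and the other was Hist1h4n, and there Hist1h2ak was called lower. These 3 genes are named here after their values were seen. Hist1h2ak, an H2A gene, was at 0.449, 0.458 and 0.446 FPKM in WT and at 0, 0 and 0.647 in PGRN KO.

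**Figure D2:**
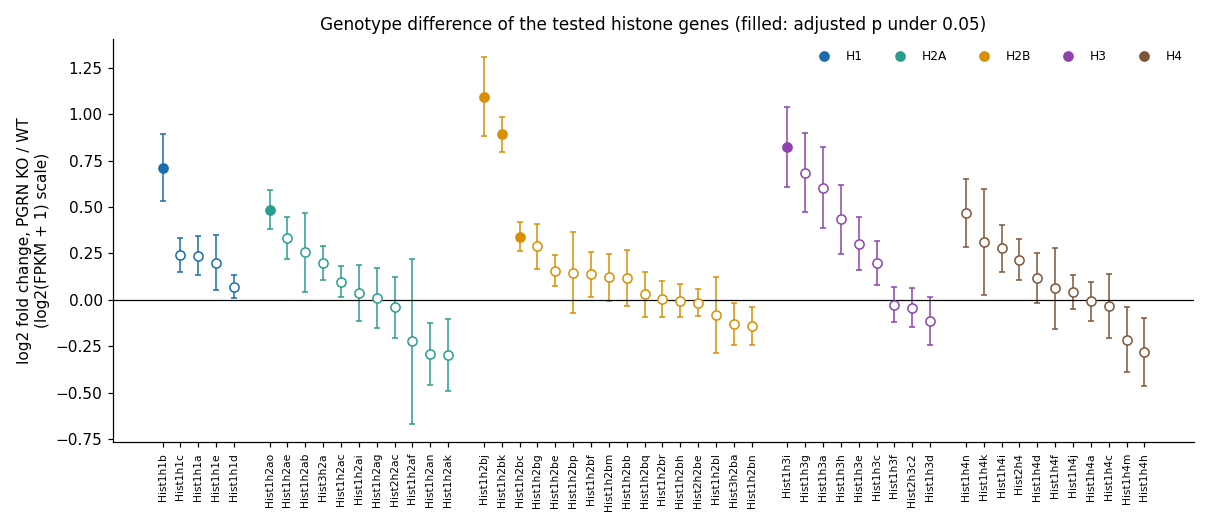
log2 fold change of PGRN KO over WT on the log2(FPKM + 1) scale for the 52 tested histone genes, grouped by class, with the standard error as bars; filled points passed an adjusted p of 0.05. The 6 filled points lie between 0.34 and 1.10, 3 of them H2B genes, and no point below 0 is filled.

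The H2B class held 3 of the 6 called genes. Hist1h2bk (ENSMUSG00000062727, chr13:22035870-22036345, + strand) had the lowest adjusted p of all members. It was at 0.124, 0.252 and 0.123 FPKM in WT and at 1.29, 0.925 and 1.28 in PGRN KO, which is 4 fragments in all WT libraries against 31 in all PGRN KO libraries. Every PGRN KO library thus lay well above every WT library, though on few fragments. The log2 fold change was 0.89 ± 0.10 (SE), with a limma adjusted p of 0.0021. Counted as fragments per library size, the ratio was 7.07, with an exact 95% counting interval of 2.50 to 27.6. Hist1h2bk was called in all 14 alternatives in which it was tested, the 6 that leave out 1 library included. Among these 14, median-of-ratios scaling left the values unchanged and so only repeats the main fit. Of its 150-base stretches, 60.9% also occur in transcripts of other genes, so the split of its reads from those of other H2B genes is uncertain.

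Hist1h2bj (ENSMUSG00000069300, chr13:22043214-22043676, + strand) had a large fold change too. Its level was 0.509, 0.259 and 1.26 FPKM in WT against 2.90, 2.14 and 2.42 in PGRN KO, on 16 against 64 fragments. Its log2 fold change was 1.10 ± 0.21 (SE) at a limma adjusted p of 0.016. WT replicate 3 was the highest of its group yet below all PGRN KO libraries, and among the fits that leave out 1 library only the one without WT replicate 3 kept the call. Hist1h2bc (ENSMUSG00000018102, chr13:23684199-23692908, + strand), annotated with 2 exons where the other called genes have 1, was far more abundant, with 5.20, 4.67 and 4.596 FPKM in WT against 6.01, 7.05 and 6.07 in PGRN KO, from 283 and 410 fragments. Its log2 fold change was smaller, 0.34 ± 0.08 (SE), with a limma adjusted p of 0.028. The call held without WT replicate 1 or PGRN KO replicate 4 and was lost on leaving out any other library, and voom on fragments did not call it.

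The other 13 tested H2B genes overlapped between the genotypes. Hist2h2be, whose annotated transcript is long and runs 2192 bases past the stop codon, was at 1.19, 1.40 and 1.23 FPKM in WT against 1.16, 1.37 and 1.22 in PGRN KO. The genotypes overlapped, and the log2 fold change was -0.01 ± 0.07 (SE, limma adjusted p = 0.92). Hist1h2bb was at 0.695, 1.30 and 0.805 in WT against 1.32, 0.759 and 1.202 in PGRN KO and overlapped as well. Over the class, 11 of 16 tested genes had a fold change above 0.

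**Figure D3:**
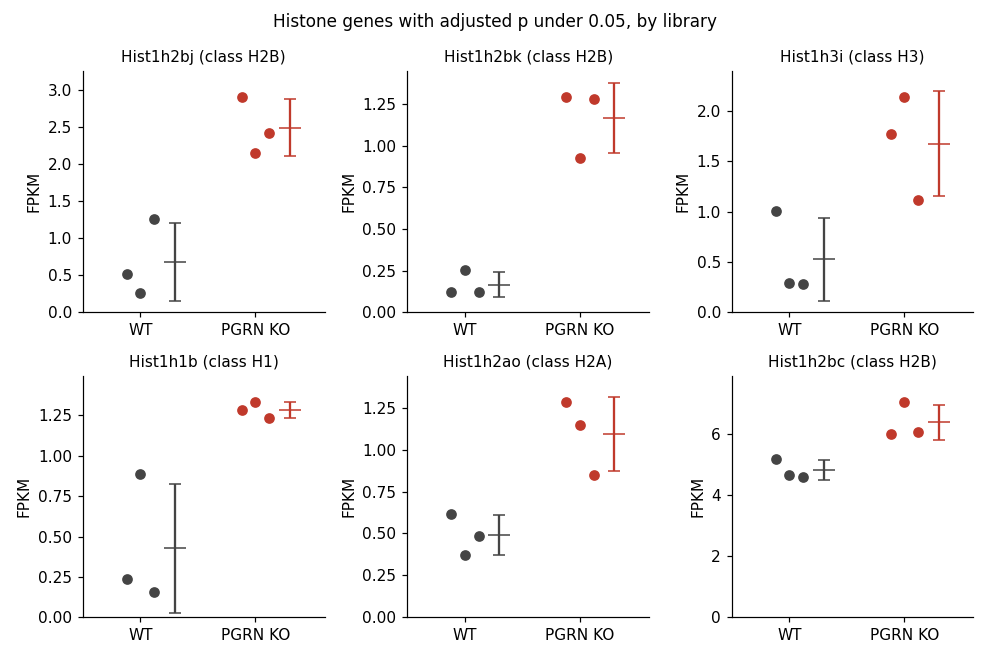
FPKM in each library (points) with mean and SD of 3 libraries (bars) for the 6 histone genes with an adjusted p under 0.05; each panel has its own axis from 0. No PGRN KO library overlaps WT in any panel; Hist1h2bc is the only one of the 6 above 4 FPKM, and Hist1h2bk has 4 fragments in the 3 WT libraries together.

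Among the H3 genes, Hist1h3i (ENSMUSG00000101972, chr13:21782960-21783370, - strand) was called. It was at 1.00, 0.292 and 0.284 FPKM in WT against 1.77, 2.14 and 1.11 in PGRN KO, on 11 against 38 fragments. Its log2 fold change was 0.82 ± 0.22 (SE) at a limma adjusted p of 0.044. WT replicate 1 and PGRN KO replicate 6 lay close to each other, and the call held when either of these was left out and was lost when any of the other 4 was. It was also lost with quantile normalization. Of its 150-base stretches 52.7% occur in other transcripts, so its own level is uncertain. Hist1h3g was at 0.444, 1.02 and 1.43 in WT against 2.54, 2.29 and 1.54 in PGRN KO, without overlap, at a log2 fold change of 0.69 ± 0.21 (SE) that missed the threshold (limma adjusted p = 0.070). Hist1h3c, the H3 gene with the highest mean, was at 1.40, 1.24 and 1.95 in WT against 2.13, 1.75 and 1.78 in PGRN KO and overlapped. Hist1h3h was at 0.287, 0.438 and 0.852 in WT against 1.23, 1.34 and 0.619 in PGRN KO and overlapped too, and 90.5% of its 150-base stretches are shared with other genes. In the class 6 of 9 tested genes lay above 0, with a median of 0.30, the highest median of the 5 classes.

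All 5 tested H1 genes had a fold change above 0, with a median of 0.24. Of these, Hist1h1a and Hist1h1d, the latter named after its values were seen, averaged under 0.1 FPKM in WT, at 0.0788 and 0.0821. They passed the filter of mean FPKM 0.1 through PGRN KO alone, at 0.268 and 0.137, so their direction was fixed by it. Hist1h1b (ENSMUSG00000058773, chr13:21779883-21780625, - strand) was called, at 0.238, 0.888 and 0.157 FPKM in WT against 1.28, 1.33 and 1.23 in PGRN KO, from 16 and 53 fragments. Its PGRN KO values were close together while WT replicate 2 stood above the other WT libraries. The log2 fold change was 0.71 ± 0.18 (SE, limma adjusted p = 0.039), and of the fits without 1 library only that without WT replicate 2 kept the call. Hist1h1c held 86.4% of the H1 sum in WT. It was at 8.64, 7.80 and 6.66 in WT against 8.84, 9.28 and 9.62 in PGRN KO, without overlap, at a log2 fold change of 0.24 ± 0.09 (SE) and a limma adjusted p of 0.12. Hist1h1e and Hist1h1a overlapped between genotypes, at 0.624 and 0.876 and at 0.0788 and 0.268 FPKM in WT and PGRN KO.

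Among the H2A genes Hist1h2ao (ENSMUSG00000094248, chr13:21810465-21810944, + strand) was called. It was at 0.613, 0.375 and 0.487 FPKM in WT against 1.28, 1.15 and 0.848 in PGRN KO, from 12 and 29 fragments, and the genotypes did not overlap. The log2 fold change was 0.49 ± 0.11 (SE, limma adjusted p = 0.023), and the call held without WT replicate 1 or PGRN KO replicate 6 but was lost without any other library and with voom. The coding sequence of Hist1h2ao is identical to that of Hist1h2ap and 91.5% of its 150-base stretches occur in other transcripts, so its own level is uncertain. Hist1h2ap was at 0.0407 FPKM in WT against 0.0704 in PGRN KO and was not tested. Hist1h2ae was at 0.669, 0.511 and 0.332 in WT against 0.716, 1.10 and 0.867 in PGRN KO, without overlap, and was not called (limma adjusted p = 0.093). Hist1h2af varied widely within each group, from 0.148 to 2.10 in WT and from 0 to 1.26 in PGRN KO. Hist3h2a was at 0.504 in WT against 0.727 in PGRN KO and overlapped.

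No H4 gene of the 11 tested was called by limma, and at an unadjusted p under 0.05 there was 1 higher and 0 lower, and voom called 0. Hist1h4i, the most abundant of all members, was at 10.2, 9.73 and 7.47 FPKM in WT against 10.0, 12.8 and 10.9 in PGRN KO. The genotypes overlapped, with a log2 fold change of 0.28 ± 0.13 (SE) and a limma adjusted p of 0.20. Hist1h4h lay in the other direction at 1.00, 1.79 and 2.11 in WT against 1.31, 0.820 and 1.30 in PGRN KO, and also overlapped. Hist1h4m was at 1.27 in WT against 0.932 in PGRN KO, and it shares an identical coding sequence with Hist1h4n, at 0.502 and 1.10. Hist1h4k was at 0.754 FPKM in WT against 1.15 in PGRN KO. Each of these overlapped between genotypes.

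Many H2A and H2B genes lie head to head, so that the space between them can serve both. Among the members 12 such H2A and H2B pairs were found, with 175 to 305 bases between the annotated ends, and 4 of them held a called gene. No partner was called in these 4 pairs, which were singled out after their values were seen, but Hist1h2ah was not tested. Hist1h2bk faces Hist1h2ah, which was listed at 0 in all libraries. Hist1h2bj faces Hist1h2ag, at 0.161 FPKM in WT against 0.150 in PGRN KO, on 4 fragments in each genotype. Hist1h2bc faces Hist1h2ac, at 0.0792 and 0.156, and Hist1h2ao faces Hist1h2bq, at 0.234 and 0.264. The part of 150-base stretches also found in other transcripts was 84.8% for Hist1h2ah, 65.5% for Hist1h2ag, 92.4% for Hist1h2bq and 5.6% for Hist1h2ac. With such sharing and so few fragments, a missing call does not show that a partner stayed the same. Over the 24 paired genes 4 of 19 tested were called higher (21.1%), and over the other 43 members 2 of 33 (6.06%), where 7.94% of all tested genes were. These counts are too small to set the 2 groups apart.

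Members of a class are close to each other in sequence. Between coding sequences of a class the median identity was 70.3% for H1, 91.4% for H2A and H2B, 97.1% for H3 and 93.9% for H4. Of the 67 members, 5 had all of their 150-base stretches in common with other genes, 49 had some and 13 had none. All 5 of the first kind, Hist2h2aa1, Hist2h2aa2, Hist2h2bb, Hist2h3b and Hist2h3c1, were listed at 0 in all libraries. The other 6 at 0 were Hist1h1t, Hist1h2aa, Hist1h2ba, Hist1h2ah, Hist1h4b and Hist2h2ab. A count of 0 allows up to 3 fragments, which for these 11 genes corresponds to between 0.0836 and 0.472 FPKM in a library. The sources used here do not say how reads that match several genes were treated, and the part of that step in these zeros was not tested. The 13 members without a shared stretch had 1 called gene of 11 tested, the 30 with a share under 50% had 2 of 27, and the 19 with 50% or more had 3 of 14. All were called higher, as were 7.94% of all tested genes.

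**Figure D4:**
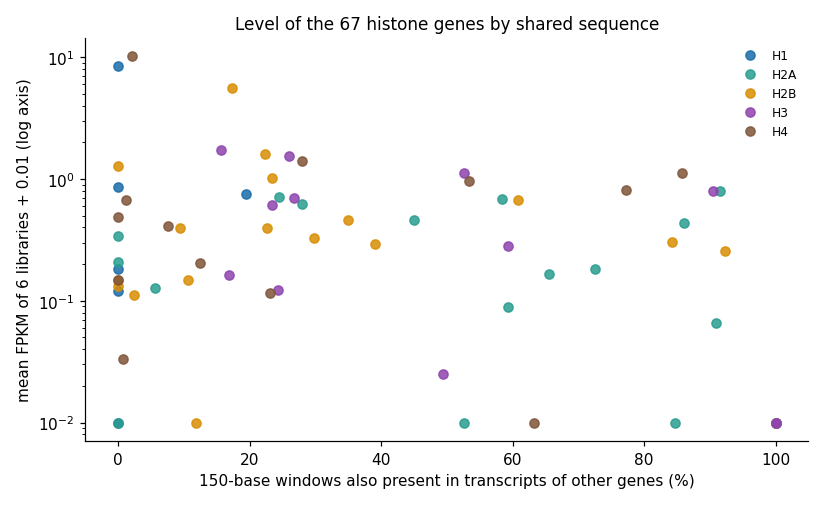
Mean FPKM over the 6 libraries plus 0.01, on a log axis, against the percentage of 150-base stretches that also occur in transcripts of other genes, for the 67 histone genes coloured by class; overlapping points are drawn on top of each other. The 5 genes at 100% all lie at the bottom of the axis (FPKM 0), and the 3 highest genes lie below 20%.

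The split by annotated length gave similar levels. The 49 members shorter than 1000 bases had a median of 0.333 FPKM and the 18 longer ones 0.262. Called higher were 5 of 36 tested and 1 of 16, where 7.94% of all tested genes were. In 24 members the annotated span overlaps another gene, mostly a small RNA gene at 0. Of the members described, Hist1h1e overlaps Hist1h2be, and Hist3h2a overlaps the coding gene Trim17 (mean 0.037 FPKM), each on the same strand. Reads of such genes can be confused.

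The replacement histones had a far higher summed FPKM than the clustered genes, and a median per gene of 8.60 against 0.292. This did not hold for every gene, as H1f0 lay at 6.998 in WT and the clustered Hist1h4i at 9.14. The libraries were selected by poly(A) tail, which clustered histone mRNAs normally lack. The part of that selection in the difference was not tested. The 17 genes of the replacement histone list summed to 938 to 979 FPKM in WT against 928 to 932 in PGRN KO. Of these, 4 were at 0 in all libraries and 1 lay below the filter. Of the 12 tested, 3 were called higher (25%) and 2 lower by limma, where 7.94% and 9.95% of all tested genes were. H2afz, which encodes H2A.Z, rose from 198.4 ± 14.1 to 242.3 ± 2.28 FPKM (SD, n = 3), at a log2 fold change of 0.29. H2afv, which encodes the second H2A.Z form, rose from 12.4 ± 1.45 to 17.7 ± 1.17, and H1f0, the linker histone H1.0 of non-dividing cells, from 6.998 ± 0.524 to 8.55 ± 0.230. The H3.3 genes lay the other way. H3f3a fell from 216.4 ± 4.57 to 176.2 ± 10.4 FPKM and H3f3b from 418.0 ± 7.41 to 374.4 ± 4.90, with limma adjusted p of 0.012 and 0.028. H2afx, whose H2A.X marks DNA breaks, was at 61.8 and 61.1 and overlapped. With plain library totals H3f3b was no longer called, at -0.04 on the log2 scale. Calls of this list were lost most without PGRN KO replicate 5 (0 higher, 1 lower) and WT replicate 2 (1 higher, 0 lower), and without WT replicate 1 or 3 there were 2 higher and 1 lower.

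Of 17 genes that process histone mRNA, 0 were called higher and 1 lower, where 7.94% and 9.95% of all tested genes were. At an unadjusted limma p under 0.05 there were 3 higher and 3 lower, against 2255 and 2495 of all 14807 tested genes. The called gene was Lsm10, a subunit of the U7 snRNP, which fell from 30.4 ± 1.21 to 25.7 ± 1.61 FPKM (SD, n = 3, limma adjusted p = 0.035). That call was kept in only 1 of the 6 fits without 1 library, the one without PGRN KO replicate 6, and with plain library totals 3 genes of the list were called higher and 0 lower. Slbp, which encodes the stem-loop binding protein, was at 8.92, 10.4 and 9.36 in WT against 10.2, 10.99 and 11.98 in PGRN KO, and overlapped (limma adjusted p = 0.15). Npat, the coactivator of histone gene transcription, was at 2.07 in WT against 1.92 in PGRN KO and overlapped too.

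Of the 20 genes for histone chaperones and import, 5 were called higher (25%) and 1 lower, where 7.94% and 9.95% of all tested genes were. Ssrp1, a subunit of the FACT chaperone, rose from 9.44 ± 0.447 to 12.8 ± 0.547 FPKM (SD, n = 3) and Asf1b, which hands H3 and H4 to the replication fork, from 11.4 ± 0.354 to 14.6 ± 0.132. Hjurp, the chaperone of the centromeric histone, rose from 33.8 to 41.7, Hat1, which acetylates new H4, from 10.9 to 13.6, and Nap1l4, an H2A and H2B chaperone, from 41.0 to 49.1. Daxx, a chaperone of H3.3, fell from 77.1 ± 0.900 to 56.0 ± 3.43, with a limma adjusted p of 0.0026. The calls for Daxx held in every fit without 1 library, whereas the higher calls numbered 2 without WT replicate 2 or PGRN KO replicate 5 and 3 without WT replicate 1, WT replicate 3 or PGRN KO replicate 6.

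Genes of S phase and mitosis were also higher in PGRN KO. Of 25 tested S phase genes 16 were called higher and 0 lower by limma (19 and 0 at an unadjusted p under 0.05, 20 and 0 by voom), with a median log2 fold change of 0.32 and a summed level of 173.4 ± 1.13 FPKM in WT against 218.9 ± 4.85 in PGRN KO. Examples are Mcm6, of the replicative helicase, at 3.87 and 6.22 FPKM, and Gins1, of the same helicase complex, at 0.885 and 2.17, which was not called without PGRN KO replicate 5 or 6. Of 18 mitosis genes 11 were called higher and 0 lower (13 and 0 unadjusted, 11 and 0 by voom), among them Top2a, which untangles DNA, at 18.9 and 27.4. The limma calls were 64% of the tested S phase genes and 61.1% of the mitosis genes, where 7.94% of all tested genes were called higher. The counts fell to 10 and 7 without WT replicate 2, to 8 and 7 without PGRN KO replicate 5, and for mitosis to 6 without WT replicate 3.

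**Figure D5:**
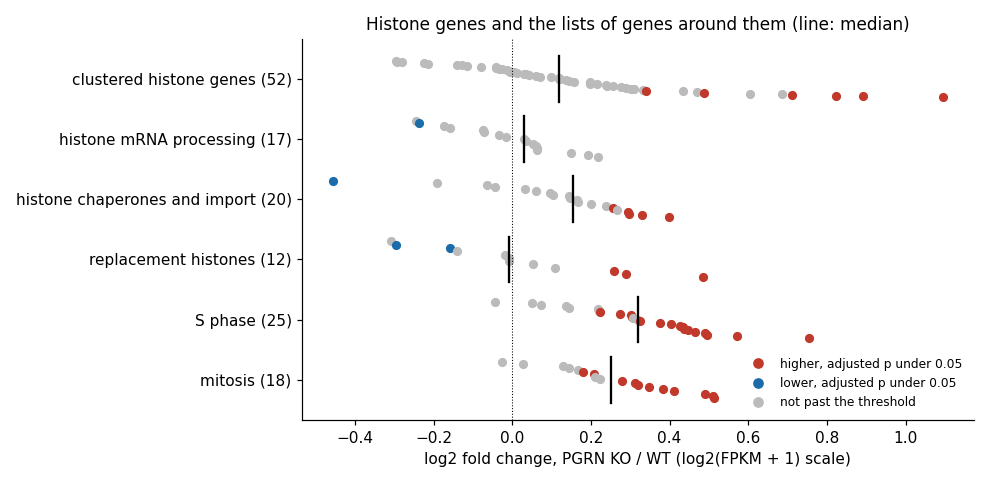
log2 fold change of PGRN KO over WT on the log2(FPKM + 1) scale for the tested clustered histone genes and for 5 lists of related genes, with the number tested in brackets; red points were called higher, blue points lower, grey points neither, and black lines are medians. The medians are 0.12 for the clustered histone genes, 0.03 for histone mRNA processing, 0.15 for chaperones, -0.01 for replacement histones, 0.32 for S phase and 0.25 for mitosis.

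Markers of some other cells in bone marrow moved in the same direction as the histone genes. For comparison with the counts below, 7.94% of all tested genes were called higher and 9.95% lower. The 7 promyelocyte genes, which mark early neutrophil precursors able to divide, were all called higher and summed to 132.5 to 147.5 FPKM in WT against 621.4 to 682.3 in PGRN KO. In the list of B and plasma cells 6 of 7 tested genes were called higher, at sums of 69.6 to 75.9 and 127.6 to 141.8. Of its 10 genes, Pax5 was at 0 in all libraries and 2 lay below the filter. In the erythroid list 4 of 5 tested genes were called higher, at sums of 2.71 to 4.87 and 8.004 to 8.80. Of its 11 genes none was at 0 in all libraries, but 6 lay below the filter and were not tested. Monocyte genes had 1 called higher and 4 lower of 8, at sums of 498.6 to 508.3 and 518.7 to 663.0, and neutrophil genes 1 higher and 2 lower of 10. The part of these cells in the level of histone mRNA was not tested.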

How the data were processed

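RNA-seq libraries of 3 WT and 3 PGRN KO neutrophil cultures were analysed. Libraries were made with poly-T selection and a NEBNext Ultra RNA kit, and the sources used here do not say whether counting used strand. The submitters' processing notes name HISAT2 2.0.5, featureCounts 1.5.0-p3, DESeq2 1.20.0 and build mm10 (GRCm38). The authors deposited 1 table of FPKM per gene and library. From its steps whole fragments were recovered (100% of values above 0 within 0.05), and its scaling equals median-of-ratios size factors.

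Genes with a mean of at least 0.1 FPKM were tested with limma 3.58.1 (R 4.3.3, eBayes with trend) on log2(FPKM + 1), with Benjamini-Hochberg adjustment over 14807 genes and a threshold of 0.05. Alternatives were other pseudocounts, filters and scalings, voom, and leaving out each library. Class sums carry no test, since 3 against 3 cannot give an exact two-sided permutation p below 0.10. Stem-loops, shared 150-base stretches and coding identity came from GENCODE M21 (GRCm38) and promoters from RefSeq. The fits were also run on simulated data with the same small spread set for every gene, which does not vouch for calls on low genes.

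The members and lists were chosen with earlier results of these data known. Named genes were Grn, the 4 members with the highest mean per class, called members, up to 6 called genes of each related list and Slbp, Npat, H2afz, H3f3a, H3f3b, H1f0 and H2afx. Others are said to be chosen after their values were seen, or are named for a property of their sequence.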

Additional observations from a re-analysis of the deposited data

How the results depend on the processing

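Counts of called genes depended on the processing more than sums did. With plain library totals, which move the median of all genes from 0.0026 to 0.067 on the log2 scale, 2149 genes were higher and 934 lower (69.7% higher, against 1175 and 1473, or 44.4%), with 3 histone mRNA processing genes higher and 0 lower, 9 chaperone genes higher, 1 replacement histone lower, and sum ratios of 1.47 for all members and 1.27 for H2A. Testing every gene with a value above 0 gave 3 members higher, 0 processing genes lower and 3 chaperone genes higher, with more genes adjusted over. A filter at mean FPKM 1 gave 2 processing genes lower, quantile normalization 0, eBayes without trend 0 with 3 chaperone genes higher and 1 replacement histone lower, and voom 2 processing genes higher and 2 lower with 2 chaperone genes lower. The cause of these shifts was not tested. Leaving out 1 library at a time gave 540 to 913 genes higher and 775 to 1248 lower, 1 to 5 members higher and 0 to 1 lower, 0 to 1 processing genes lower, 2 to 5 chaperone genes higher, 0 to 2 replacement histones higher and 0 to 2 lower, 8 to 11 S phase genes and 6 to 10 mitosis genes higher, all with fewer samples. In these fits the sum ratio of all members stayed between 1.32 and 1.37, and no called value of a named gene changed sign under any alternative run. No paired analysis was possible because the replicate numbers 1 to 6 are not shared between the genotypes. Depth limits the members: 44 of the 52 tested had under 100 fragments in all 6 libraries together.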

Other observations

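The 3 histone names left out as pseudogenes were close to 0. Hist3h2bb-ps was at 0.127 FPKM in WT replicate 1 and 0.328 in PGRN KO replicate 6, Hist1h2aj at 0.289 in PGRN KO replicate 6 and Hist1h2al at 0.162 in PGRN KO replicate 5, and each was at 0 in the other libraries.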
